A study of Homo sapiens with 44 samples.

Results

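The genes of catecholamine synthesis and transport were examined as a set of 9 rows (TH, DBH, DDC, GCH1, SLC18A1, SLC18A2, SLC6A2, MAOA and CYB561), chosen by symbol from the 19923 genes of each count table. The study treated MYCN-amplified neuroblastoma cells with STM2457, an inhibitor of METTL3, the enzyme that places most N6-methyladenosine (m6A) on mRNA, and sequenced input RNA and RNA pulled down with an m6A antibody (RIP libraries). The 44 libraries formed 4 experiments. Kelly cells received DMSO or 8 µM STM2457 for 1 day or for 6 days, and NGP cells received the same for 6 days, with 3 input and 3 RIP libraries per treatment. Kelly cells grown under the skin of nude mice formed the xenografts, which were given the vehicle, labelled DMSO, or 50 mg/kg STM2457 once daily for 14 days, with 2 input and 2 RIP libraries per treatment. Both lines are labelled wild type, and each is a single established line. The labels do not say whether replicates came from separate cultures or animals, so p-values measure the spread between these libraries.

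The members' gene models in GRCh38, as the tables give them, were TH at chr11:2163929-2171877 and DDC at chr7:50458436-50565405 on the minus strand, and DBH at chr9:133636363-133659329 on the plus strand. GCH1 (chr14:54842008-54902826), SLC18A1 (chr8:20144855-20183206) and CYB561 (chr17:63432304-63446354) lay on the minus strand, and SLC18A2 (chr10:117241093-117279430), SLC6A2 (chr16:55655604-55706192) and MAOA (chrX:43654907-43746824) on the plus strand. SLC18A2 shared 2157 of its 4125 exon bases with PDZD8 on the opposite strand. Fragments there were assigned to neither gene, so SLC18A2 counts cover only the remaining 1968 exon bases, and its TPM is given over those. The other 8 members overlapped no exon of another gene in the tables.

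Catecholamines are made from tyrosine. Tyrosine hydroxylase (TH), which needs the cofactor tetrahydrobiopterin made by the pathway that GCH1 starts, yields L-DOPA, DDC turns it into dopamine, and DBH, inside the vesicle, turns dopamine into noradrenaline. The vesicular monoamine transporters SLC18A1 and SLC18A2 load the vesicle, CYB561 carries electrons across its membrane to keep ascorbate reduced for DBH, SLC6A2 takes noradrenaline back up from outside the cell, and MAOA breaks monoamines down at the mitochondrion. Neuroblastoma arises from the sympathoadrenal lineage, and its catecholamine products are used in diagnosis.

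METTL3 methylates adenosine in a short consensus, of which GGACT is the best known form. The reference transcripts (GENCODE 44) held 3 GGACT in TH, 2 each in DBH and DDC, 3 each in SLC18A2 and SLC6A2, 4 each in MAOA and CYB561, 2 in SLC18A1 and 0 in GCH1. The 3 sites of TH and both of DBH and of DDC were in coding exons, while the 3 sites of SLC6A2 and 3 of the 4 in MAOA and in CYB561 were in the 3′ UTR. Windows are printed from the genes whose RIP ratio moved in Kelly cells at 1 day. They are printed so that the coding sites in short exons (TH, DDC, DBH) can be set beside the sites in the long last exon of MAOA. Capitals mark GGACT, and each window has 8 bases on either side.
TH exon 4, chr11:2168094-2168114, minus strand: cctgacctGGACTtggaccac
TH exon 8, chr11:2166707-2166727, minus strand: tccgcccgGGACTtcctggcc
DDC exon 4, chr7:50537926-50537946, minus strand: gtgatgatGGACTggctcggg
DDC exon 12, chr7:50470084-50470104, minus strand: gagtcaaaGGACTgcaggctt
DBH exon 2, chr9:133639885-133639905, plus strand: ccccagcaGGACTaccagctg
DBH exon 6, chr9:133647915-133647935, plus strand: tggagctgGGACTggtgtaca
MAOA 3′ UTR, chrX:43745279-43745299, plus strand: tagtggcaGGACTgtccccca
MAOA 3′ UTR, chrX:43746387-43746407, plus strand: ggagctgaGGACTctcacgat
The exons that hold the printed TH sites are 89 and 136 bases long, those of DDC 120 and 99, and those of DBH 147 and 167. The remaining TH site, in exon 9 (70 bases), is not printed. The printed MAOA sites lie in a last exon of 2451 bases, while the coding site of MAOA, not printed, lies in exon 2 (95 bases). The counts are per gene, so no site's methylation was measured here.

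In the inputs of DMSO-treated Kelly cells, the synthesis enzymes were among the most abundant transcripts, and in NGP cells most of the set was low or nearly absent. Levels between genes are given as TPM (fragments per unit of gene length, scaled to a fixed library total), from the deposited gene lengths. In Kelly cells at 1 day DBH stood at 3850 ± 86.8 TPM (SD, n = 3), rank 23 of all genes. DDC followed at 912 ± 15.4, TH at 774 ± 124, CYB561 at 440 ± 19.4, MAOA at 181 ± 3.34 and SLC6A2 at 119 ± 4.32 TPM (SD, n = 3 each). Of the vesicular transporters, SLC18A2 stood at 173 ± 6.20 TPM over its countable bases (82.4 over its whole length) and SLC18A1 at 80.5 ± 5.77, and GCH1 was last at 6.78 ± 0.870 TPM (SD, n = 3 each). In this order the ranges of DDC and TH overlapped, as did those of MAOA and SLC18A2, and no other neighbours did.

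At 6 days the order in DMSO-treated Kelly cells was DBH (1762 ± 14.9 TPM), TH (893 ± 25.7), DDC (459 ± 19.7) and CYB561 (158 ± 7.32), with SD and n = 3 for each. SLC18A2 (45.9 ± 2.28 TPM over its countable bases, 21.9 over its whole length) overlapped MAOA (42.3 ± 2.71), and MAOA overlapped SLC18A1 (40.7 ± 0.395). SLC6A2 (30.3 ± 1.72 TPM) and GCH1 (12.5 ± 0.818) followed without overlap (SD, n = 3 each). In the xenografts DBH was again first at 3181 ± 150 TPM, then TH at 1483 ± 49.4, DDC at 587 ± 94.96, CYB561 at 309 ± 16.9 and MAOA at 61.6 ± 10.9 TPM (SD, n = 2 each). SLC18A1 (40.3 ± 7.02 TPM) and SLC6A2 (19.97 ± 3.45) came next, then SLC18A2 (12.2 ± 5.88 over its countable bases, 5.80 over its whole length) and GCH1 (7.02 ± 1.37), without overlap (SD, n = 2 each). DBH was the most abundant of the 9 in every experiment, and TH passed DDC in the 6 day and xenograft inputs.

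NGP cells differed in the order as well as the level. DBH stood at 143 ± 38.7 TPM and DDC at 86.1 ± 11.4, then GCH1 at 22.8 ± 8.34 and SLC6A2 at 21.4 ± 2.15, which overlapped, and MAOA at 3.18 ± 1.32 (SD, n = 3 each). TH (0.886 ± 0.452 TPM), CYB561 (0.729 ± 0.422), SLC18A1 (0.684 ± 0.257) and SLC18A2 (0.633 ± 0.955 over its countable bases) all averaged under 1 TPM and overlapped as neighbours (SD, n = 3 each). Behind the TH value were 4, 7 and 10 fragments in the 3 NGP DMSO inputs, against 11952, 12221 and 11530 in the Kelly inputs at the same day. The enzyme that starts the pathway was hardly detected in NGP, while DDC and DBH, the enzymes after it, averaged 86.1 and 143 TPM.

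**Figure D1:**
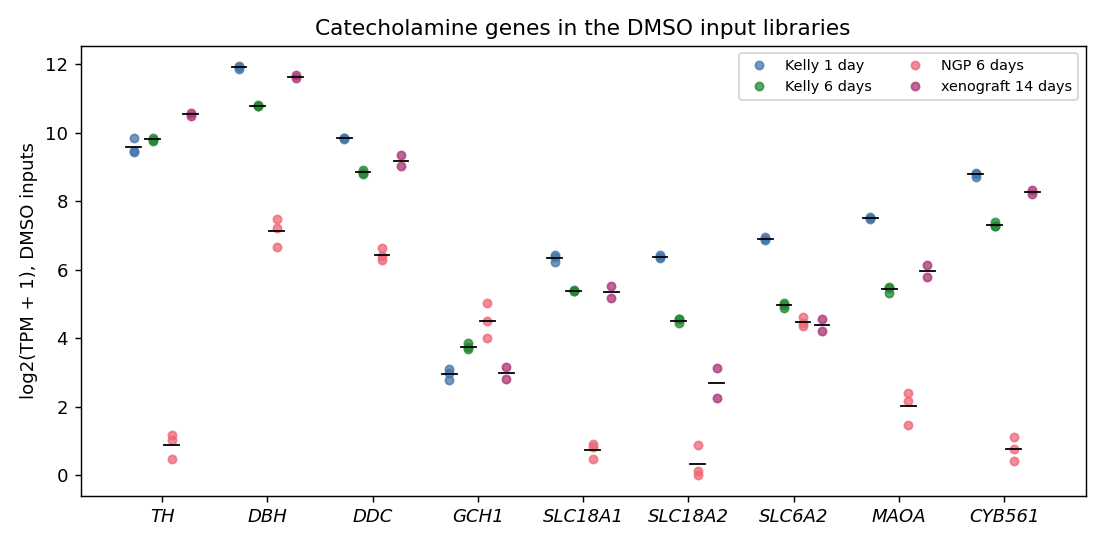
Level of the 9 members in each DMSO input library, as log2(TPM + 1), with 1 point per library, a bar at the mean and colours for the 4 experiments (SLC18A2 over its whole length, which counts cover only in part). The NGP points of TH, CYB561, SLC18A1 and SLC18A2 sit near 0, while the Kelly and xenograft points of DBH lie above all other members.

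Between NGP and Kelly at 6 days, 8 of the 9 members were lower in NGP and 0 higher by edgeR's quasi-likelihood test, its p adjusted over all genes (60.8% of 12940 genes called, 31.7% lower). The log2 difference was -10.42 for TH (SE 0.20), -7.97 for CYB561 (SE 0.18), -3.97 for DBH (SE 0.15), -4.09 for MAOA (SE 0.23) and -2.76 for DDC (SE 0.10). It was smaller for SLC6A2, at -0.84 (SE 0.13, adjusted p = 0.000241). For SLC18A1 and SLC18A2, with 0 to 11 fragments per NGP input, the fitted -6.30 and -6.25 rest on near-absent counts. GCH1 was the exception, with 12.9 to 28.5 CPM (counts scaled to a common library total) in NGP and 11.4 to 12.99 in Kelly (log2 difference 0.53, SE 0.28, adjusted p = 0.123). Its call appeared without NGP DMSO replicate 1 (0.80) and on the TPM scale with limma (0.76). The 2 lines were separate experiments, so line and experiment cannot be told apart.

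Kelly DMSO inputs at 6 days and at 1 day also differed, for all 9 members, but so did 79.1% of the 13221 genes tested (37.9% higher, 41.1% lower at 6 days). TH was higher at 6 days by 0.93 on the log2 scale (SE 0.07) and GCH1 by 1.60 (SE 0.17). The other 7 were lower, most for MAOA (-1.38, SE 0.06), SLC6A2 (-1.25, SE 0.07) and SLC18A2 (-1.19, SE 0.08), and least for SLC18A1 (-0.26, SE 0.07) and DDC (-0.27, SE 0.05). DBH (-0.41, SE 0.04) and CYB561 (-0.76, SE 0.05) lay between. These sizes depend on the scaling: on the TPM scale, where the median over all genes was -0.64 in place of -0.06, SLC18A1 differed by -0.97, DDC by -0.99, DBH by -1.13 and TH by 0.22, with all 9 calls and directions kept. The days were sequenced as separate experiments, so day and experiment cannot be told apart.

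Against Kelly cells at 6 days, the xenograft vehicle inputs held more TH (log2 difference 0.87, SE 0.05), DBH (0.99, SE 0.04), DDC (0.49, SE 0.08), MAOA (0.69, SE 0.11) and CYB561 (1.11, SE 0.07). They held less SLC18A2 (-1.73, SE 0.26) and SLC6A2 (-0.45, SE 0.14, adjusted p = 0.0283), so 7 of the 9 were called (40.8% of 13065 genes, 20.4% higher and 20.4% lower). The SLC6A2 call was lost without any 1 of the 3 Kelly DMSO inputs (adjusted p from 0.0681 to 0.129). In tumours as in the other bulk samples, fewer cells of a type and less RNA per cell cannot be told apart.

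STM2457 for 6 days changed all 9 members in Kelly inputs. TH fell 2.01-fold, DDC, GCH1 and both vesicular transporters fell by 0.81 to 0.88 on the log2 scale, DBH and CYB561 fell by 0.38 and 0.40, and MAOA and SLC6A2 rose. TH measured 989, 956 and 934 CPM in DMSO and 470, 529 and 550 CPM with STM2457. The lowest DMSO library lay well above the highest treated one, and the log2 change was -1.01 (SE 0.07, adjusted p = 2.35e-08 by edgeR's quasi-likelihood test). DDC went from 491, 452 and 466 CPM to 273, 297 and 300 CPM, again without overlap (-0.81, SE 0.06, adjusted p = 1.35e-07). DBH, the most abundant member, moved less, from 1618, 1593 and 1600 CPM to 1259, 1356 and 1378 CPM (-0.38, SE 0.06, adjusted p = 0.000288).

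GCH1, the first enzyme of cofactor synthesis, had 11.9, 12.99 and 11.4 CPM in DMSO and 6.94, 7.49 and 7.63 CPM with STM2457 (-0.84, SE 0.15, adjusted p = 0.00058). The vesicular transporter SLC18A1 went from 52.2, 52.7 and 53.2 CPM to 33.7, 30.4 and 26.9 CPM (-0.88, SE 0.09), and SLC18A2 from 30.7, 28.2 and 30.9 to 18.7, 17.5 and 15.4 CPM (-0.88, SE 0.11). Their treated libraries all lay below the DMSO libraries. CYB561 fell from 292, 271 and 269 CPM to 204, 236 and 240 CPM (-0.40, SE 0.07, adjusted p = 0.000355).

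The genes for reuptake and breakdown moved the other way. SLC6A2 stood at 55.3, 51.5 and 57.6 CPM in DMSO and at 85.7, 91.9 and 88.8 CPM with STM2457 (log2 change 0.59, SE 0.07, adjusted p = 1.97e-05). MAOA went from 81.5, 79.2 and 71.9 CPM to 151, 141 and 118 CPM (0.73, SE 0.09, adjusted p = 1.23e-05). For both genes every treated library was above every DMSO library.

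In counts, 7 members fell and 2 rose, beside 26.6% of the 12773 genes called (14.7% lower, 11.9% higher). The DMSO and treated libraries of all 9 did not overlap, which held for 44% of genes. The median log2 change was -0.81 over the members and -0.0045 over all genes tested. The summed level of the 9 went from 3537 ± 72.9 to 2644 ± 124 CPM (SD, n = 3 each), and the TPM of TH relative to that of DBH from 0.507 ± 0.0118 to 0.328 ± 0.0110. Treated replicate 3 held 5.77 M assigned fragments, the least of these inputs, and all 9 calls held without it. When all 22 inputs shared 1 spread, edgeR called 6 of the 9, without DBH (adjusted p = 0.0513), CYB561 (0.0643) and GCH1 (0.326).

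**Figure D2:**
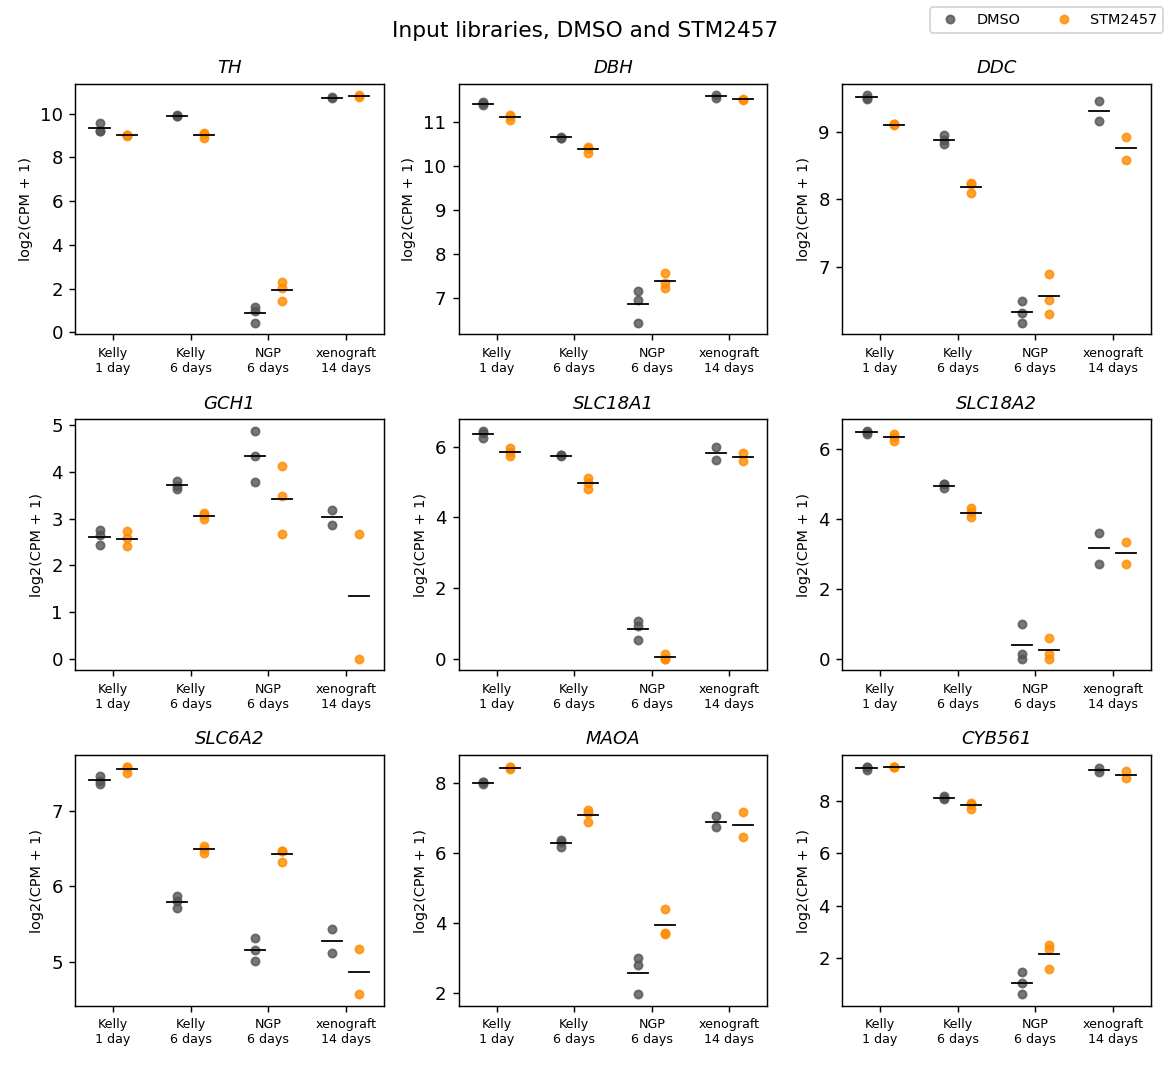
Input level of each member as log2(CPM + 1), DMSO in grey and STM2457 in orange, with 1 point per library and a bar at the mean. In Kelly cells at 6 days the 2 treatments are separate in all 9 panels, with SLC6A2 and MAOA higher after STM2457 and the other 7 lower.

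After 1 day of STM2457 the Kelly inputs showed smaller changes in 5 of the 9 members, 4 lower and 1 higher (17.5% of 13246 genes called, 8.06% lower and 9.41% higher). TH went from 584, 769 and 596 CPM to 507, 524 and 523 CPM, DMSO replicate 2 standing above the rest (log2 change -0.35, SE 0.07, adjusted p = 0.00331). DDC went from 744, 715 and 725 CPM to 552, 549 and 546 CPM (-0.43, SE 0.04, adjusted p = 1.51e-06). DBH went from 2803, 2751 and 2657 to 2266, 2129 and 2294 CPM (-0.32, SE 0.04, adjusted p = 4.08e-05). In all 3 genes the treated libraries lay below the DMSO libraries, which held for 13.6% of genes.

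SLC18A1 fell the most at 1 day, from 83.3, 75.1 and 86.1 CPM to 56.3, 60.9 and 52.1 CPM (-0.56, SE 0.07), while SLC18A2 overlapped between treatments (-0.17, SE 0.06, adjusted p = 0.0712, or 0.047 by DESeq2). MAOA already rose, from 261, 254 and 263 CPM to 351, 355 and 340 CPM (0.40, SE 0.04, adjusted p = 8.13e-06). SLC6A2 went from 175, 162 and 166 CPM to 179, 190 and 190 CPM without overlap but did not pass the test (0.13, SE 0.05, adjusted p = 0.0947). GCH1 and CYB561 overlapped between treatments, with adjusted p of 0.839 and 0.831. The median log2 change was -0.17 over the 9 members and 0.0074 over all genes. A fit that pooled the spread of all 22 inputs called 0 members in this experiment, with TH at -0.36 and DDC at -0.44.

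In NGP cells 7 members had counts enough to be tested after 6 days, and 2 passed, both upwards (4.23% of 12289 genes called, 2.07% higher). SLC6A2 measured 31.2, 34.9 and 39.0 CPM in DMSO and 87.7, 87.6 and 79.3 CPM with STM2457, with every treated library above every DMSO library (log2 change 1.20, SE 0.18, adjusted p = 0.000208). MAOA measured 6.97, 5.91 and 2.88 CPM in DMSO and 11.9, 12.2 and 20.3 CPM with STM2457 (1.43, SE 0.40, adjusted p = 0.039). The MAOA call was lost without DMSO replicate 3, STM2457 replicate 1 or STM2457 replicate 3 (adjusted p = 0.199, 0.113 and 0.202).

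The synthesis enzymes gave no call in NGP. DBH measured 143, 85.4 and 123 CPM in DMSO and 188, 148 and 160 CPM with STM2457 (0.43, SE 0.17, adjusted p = 0.166), and DDC 89.0, 78.6 and 71.0 against 90.1, 77.8 and 118 CPM (0.19, SE 0.17). GCH1 measured 12.9, 28.5 and 19.2 CPM in DMSO and 10.3, 16.4 and 5.36 CPM with STM2457, an overlap (-1.01, SE 0.37, adjusted p = 0.132). Its adjusted p was 0.0375 without a low-count filter and 0.0331 without STM2457 replicate 2. TH, with 4 to 10 fragments per DMSO input and 17 to 42 per treated one, had a log2 change of 1.70 (SE 0.89, adjusted p = 0.326), and CYB561 one of 1.54 (SE 0.80, adjusted p = 0.322). Both were called when all 22 inputs shared 1 spread (adjusted p = 0.00195 and 0.000933), as was DBH (0.0184). SLC18A1 had 5, 6 and 9 fragments in DMSO and 1, 0 and 0 with STM2457, and SLC18A2 had 11, 0 and 1 against 6, 0 and 1. A count of 0 allows up to 3 fragments in a library, so these 2 levels were at the limit of detection.

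In the xenografts 0 of the 9 members passed (0% of 11329 genes called by edgeR). Unadjusted p-values were under 0.05 for 968 genes, and DESeq2 called 123 genes, of which 0 were members. TH stood at 1665 and 1708 CPM in the vehicle libraries and at 1841 and 1716 CPM with STM2457 (log2 change 0.20, SE 0.09, adjusted p = 0.59). DBH stood at 2994 and 3133 against 2912 and 2927 CPM (0.06, SE 0.08). Its treated CPM values, scaled to library totals, lay below the vehicle ones, while the fit with TMM factors gave a small rise. DDC was lower in both treated libraries, where such a fall without overlap in CPM held for 27.7% of genes. It stood at 482 and 383 CPM against 568 and 700 CPM, without passing the test (-0.42, SE 0.16, adjusted p = 0.544). Its adjusted p was 0.00713 without STM2457 replicate 1 and 0.0339 with all 22 inputs in 1 fit. GCH1 had 17 and 0 fragments in the treated libraries and 27 and 59 in the vehicle libraries. The inputs of this experiment held 2.14 to 7.27 M fragments with 2 libraries per group, which limits the precision of these changes.

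**Figure D3:**
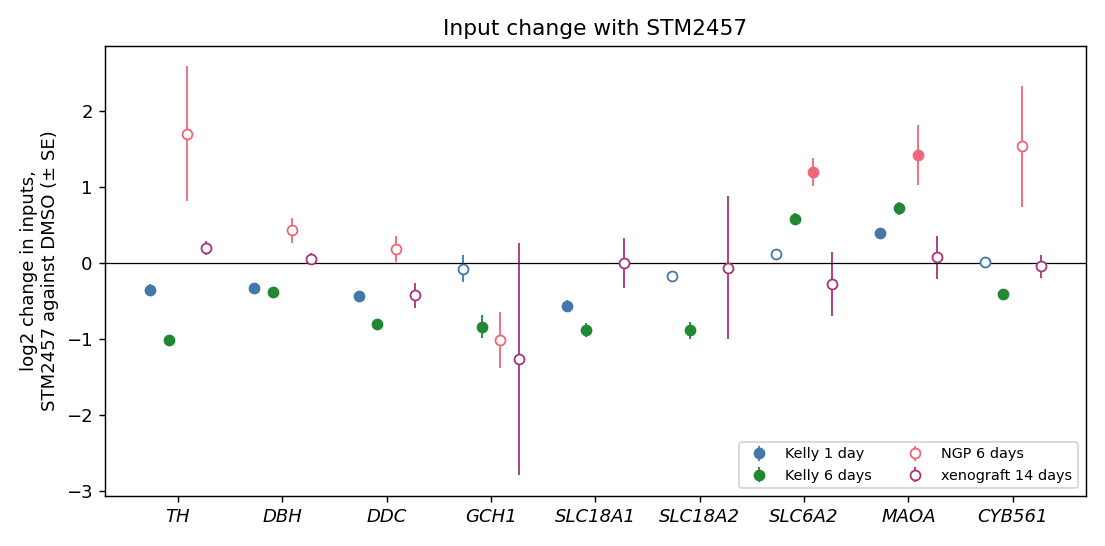
Log2 change of input with STM2457 against DMSO for each member in the 4 experiments, with standard errors, filled symbols where the adjusted p was under 0.05 and open symbols otherwise. SLC6A2 and MAOA lie above 0 in Kelly cells and NGP cells at 6 days, and the members that fell in Kelly cells lie below 0 at 1 day and 6 days or at 6 days alone.

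The change with STM2457 was also compared across experiments, by the interaction term of treatment and experiment. Between NGP and Kelly at 6 days, the change differed for 4 of the 9 members, TH, DBH, DDC and CYB561 (1.36% of 13448 genes called, 0.796% higher), all more positive in NGP. The difference for TH was 2.77 (SE 0.40, adjusted p = 0.000967) and for CYB561 1.90 (SE 0.34, adjusted p = 0.00556), though both rest on few NGP fragments. For DDC it was 0.98 (SE 0.18, adjusted p = 0.00607) and for DBH 0.79 (SE 0.19, adjusted p = 0.0462). The DBH call was lost when any 1 of 9 libraries was left out, among them each of the 6 Kelly inputs (adjusted p from 0.0545 to 0.136). For SLC6A2 and MAOA, which rose in both lines, the difference did not pass (0.59, SE 0.17, adjusted p = 0.0996, and 0.71, SE 0.32, adjusted p = 0.351).

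Between 6 days and 1 day in Kelly cells, 7 of the 9 changes differed (8.41% of 13773 genes called, 4.73% lower and 3.67% higher at 6 days). TH (-0.64, SE 0.11), DDC (-0.36, SE 0.07), SLC18A2 (-0.69, SE 0.12), CYB561 (-0.40, SE 0.08) and GCH1 (-0.75, SE 0.23) had the lower change at 6 days. SLC6A2 (0.48, SE 0.09) and MAOA (0.34, SE 0.10) had the higher change. DBH and SLC18A1, which fell at both times, did not differ (adjusted p = 0.816 and 0.129). The GCH1 call was lost without any 1 of 10 of the 12 libraries (adjusted p from 0.0630 to 0.124) and the MAOA call without any 1 of 6 (0.0540 to 0.0886). Between xenograft and Kelly cells at 6 days, the change was higher in the xenograft for TH (1.19, SE 0.11, adjusted p = 0.000373), DBH (0.42, SE 0.09, adjusted p = 0.0155) and SLC18A1 (0.89, SE 0.25, adjusted p = 0.0454), 3 of 9 beside 9.98% of 13200 genes (4.46% higher). The DBH call was lost without Kelly DMSO replicate 1 or 3 (adjusted p = 0.0576 and 0.0589), and the SLC18A1 call without any 1 of 7 libraries (0.0634 to 0.115). These comparisons share the Kelly inputs at 6 days.

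In the antibody pull-down, most members were recovered below the typical gene. The ratio of RIP over input was fitted per gene with each library scaled to the bulk of its genes, so 0 on its log2 scale is near the typical gene and not the absence of m6A. In Kelly DMSO libraries at 1 day all 9 were lower in RIP than in input (67.6% of 13669 genes called, 34.3% lower and 33.3% higher), a direction that turned for 4 of them when libraries were scaled to mitochondrial mRNAs, and 8 of them by at least 1 on the log2 scale (29.1% of genes). GCH1 (-3.88, SE 1.29), TH (-3.34, SE 0.18) and SLC18A2 (-3.10, SE 0.64) were lowest, with MAOA at -2.44 (SE 0.12) and DDC at -1.76 (SE 0.07). SLC6A2 (-1.44, SE 0.16), CYB561 (-1.40, SE 0.09) and SLC18A1 (-1.23, SE 0.23) followed, and DBH was closest to the typical gene at -0.88 (SE 0.06). The median was -1.76 over the members and -0.07 over all genes. The GCH1 ratio rests on 30, 1 and 2 RIP fragments and was not called without DMSO RIP replicate 2 or 3 (adjusted p = 0.0536 and 0.0633).

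Per library, TH had 74.8, 66.5 and 43.6 CPM in the DMSO RIP libraries beside 584 to 769 CPM in the inputs. DBH had 1549, 1357 and 1379 CPM in RIP beside 2657 to 2803 CPM in the inputs. No RIP library of either gene reached its lowest input library, which held for 43.7% of genes.

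At 6 days in Kelly DMSO libraries 8 of 9 members were lower in RIP (58% of 13324 genes called, 29.2% lower), a direction that turned for all of them with the mitochondrial scaling. TH (-3.43, SE 0.39), DDC (-3.51, SE 0.25) and MAOA (-2.82, SE 0.40) were again low, CYB561 stood at -2.09 (SE 0.24) and SLC18A2 at -1.92 (SE 0.43), and DBH (-1.18, SE 0.15) and SLC6A2 (-1.07, SE 0.35) were nearest to the typical gene. GCH1 (-4.08, SE 1.60, adjusted p = 0.0443) had 13, 0 and 10 RIP fragments and lost its call without any 1 of 9 libraries (adjusted p from 0.0651 to 0.0983). SLC6A2 lost its call without DMSO RIP replicate 3 (adjusted p = 0.0876). SLC18A1 (-1.37, SE 0.80, adjusted p = 0.159) was the member not called, and it was called without STM2457 RIP replicate 3 (adjusted p = 0.00373), a library with 4 SLC18A1 fragments. DDC had 39.8, 32.5 and 54.3 CPM in these RIP libraries and 193, 200 and 228 CPM in those at 1 day, a difference that was not tested.

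In NGP DMSO libraries 4 of the 8 members tested were lower in RIP (55.5% of 13088 genes called, 26.5% lower), GCH1 (-2.36, SE 0.49), DDC (-1.68, SE 0.21), DBH (-1.08, SE 0.20) and SLC6A2 (-0.72, SE 0.19). MAOA (-0.37, SE 0.39) and CYB561 (0.65, SE 0.59) overlapped between RIP and input, TH and SLC18A1 had at most 16 fragments in any DMSO library and were not called, and SLC18A2 was not tested. In the xenograft vehicle libraries 2 of 9 passed, TH (-3.05, SE 0.39, adjusted p = 0.0083) and DDC (-3.34, SE 0.57, adjusted p = 0.0202), where 3.75% of 12626 genes were called. DBH (-0.81, SE 0.40) and CYB561 (-1.54, SE 0.40) did not pass there. Both xenograft calls were lost without either STM2457 input, and that of DDC also without vehicle input replicate 2 or either vehicle RIP library (adjusted p from 0.0583 to 0.111 over both genes). GCH1 and SLC18A2 each had 1 and 0 fragments in the 2 xenograft vehicle RIP libraries, and SLC6A2 (19.5 and 75.4 CPM) and MAOA (99.9 and 18.7 CPM) differed severalfold between them.

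The ratio depends on what the libraries are scaled to. Scaled to the 13 mitochondrially encoded mRNAs in place of the bulk of the genes, all 9 members were above 0 in Kelly cells at 6 days, from 0.99 for GCH1 to 3.67 for DBH. At 1 day TH, SLC18A2, GCH1, MAOA and DDC stayed below 0 on that scale, and DBH (0.76), SLC18A1 (0.40), CYB561 (0.24) and SLC6A2 (0.20) were above it. The median over all genes moved as well, from -0.07 to 1.57 at 1 day, from -0.10 to 4.77 at 6 days, from 0.08 to 0.83 in NGP and from -0.16 to 2.02 in the xenograft. The second scaling multiplies each RIP library by the same factor for all genes. A gene's place against the median and the order of the members could therefore hardly change, and they give no separate support. In Kelly cells all 9 members lay below that median with either scaling, at both days. At 6 days SLC6A2 was highest with the first scaling and DBH with the second, and GCH1 was lowest with both.

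STM2457 for 1 day moved the RIP ratio of 4 of the 9 members in Kelly cells, 3 upwards and 1 downwards (17.2% of 13669 genes called, 9.53% higher and 7.62% lower), where the 3 that rose reversed when libraries were scaled to mitochondrial mRNAs. MAOA had 35.4, 50.5 and 51.7 CPM in DMSO RIP libraries and 150, 130 and 142 CPM with STM2457, and its ratio rose by 1.28 (SE 0.16, adjusted p = 0.000152). DDC had 193, 200 and 228 CPM in DMSO RIP and 323, 355 and 339 CPM with STM2457 while its input fell, and its ratio rose by 1.22 (SE 0.09, adjusted p = 4e-06). TH had 74.8, 66.5 and 43.6 against 92.1, 92.7 and 77.0 CPM (0.92, SE 0.24, adjusted p = 0.0185). In all 3 the treated RIP libraries lay above the DMSO RIP libraries, which held for 15% of genes.

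DBH was the member whose ratio fell, by 0.32 (SE 0.09, adjusted p = 0.0261), from 1549, 1357 and 1379 CPM to 853, 893 and 873 CPM in RIP. GCH1, SLC18A1, SLC18A2, SLC6A2 and CYB561 did not pass (adjusted p from 0.396 to 0.825). The DBH call was lost with RLE factors (adjusted p = 0.0771), with no low-count filter (0.258) and without any 1 of 6 libraries (0.0508 to 0.125). The TH call was lost without DMSO input replicate 2 (adjusted p = 0.051), the library with the highest TH. On the mitochondrial scale the changes of TH, DDC and MAOA turned to -0.54, -0.22 and -0.14, beside a median of -1.47 over all genes (-0.03 with the first scaling).

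The other experiments gave no call for a change of the ratio. In Kelly cells at 6 days it was 0 of 9 members (2.06% of 13324 genes). DESeq2 called 0 members there as well, 0 members had an unadjusted p under 0.05, and 1 was called without STM2457 RIP replicate 1. In NGP it was 0 of 8 members (0% of 13088 genes by edgeR), with 2 members and 764 genes at an unadjusted p under 0.05 and 2 genes called by DESeq2. In the xenograft it was 0 of 9 (0% of 12626 genes), with 809 genes at an unadjusted p under 0.05 and 227 genes called by DESeq2. RIP libraries of a group differed in depth and in single members. TH had 19.1, 50.5 and 68.5 CPM in the treated Kelly RIP libraries at 6 days, SLC18A1 had 16.6, 6.30 and 0.245 CPM there, and MAOA had 0 and 1120 fragments in the 2 treated xenograft RIP libraries.

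**Figure D4:**
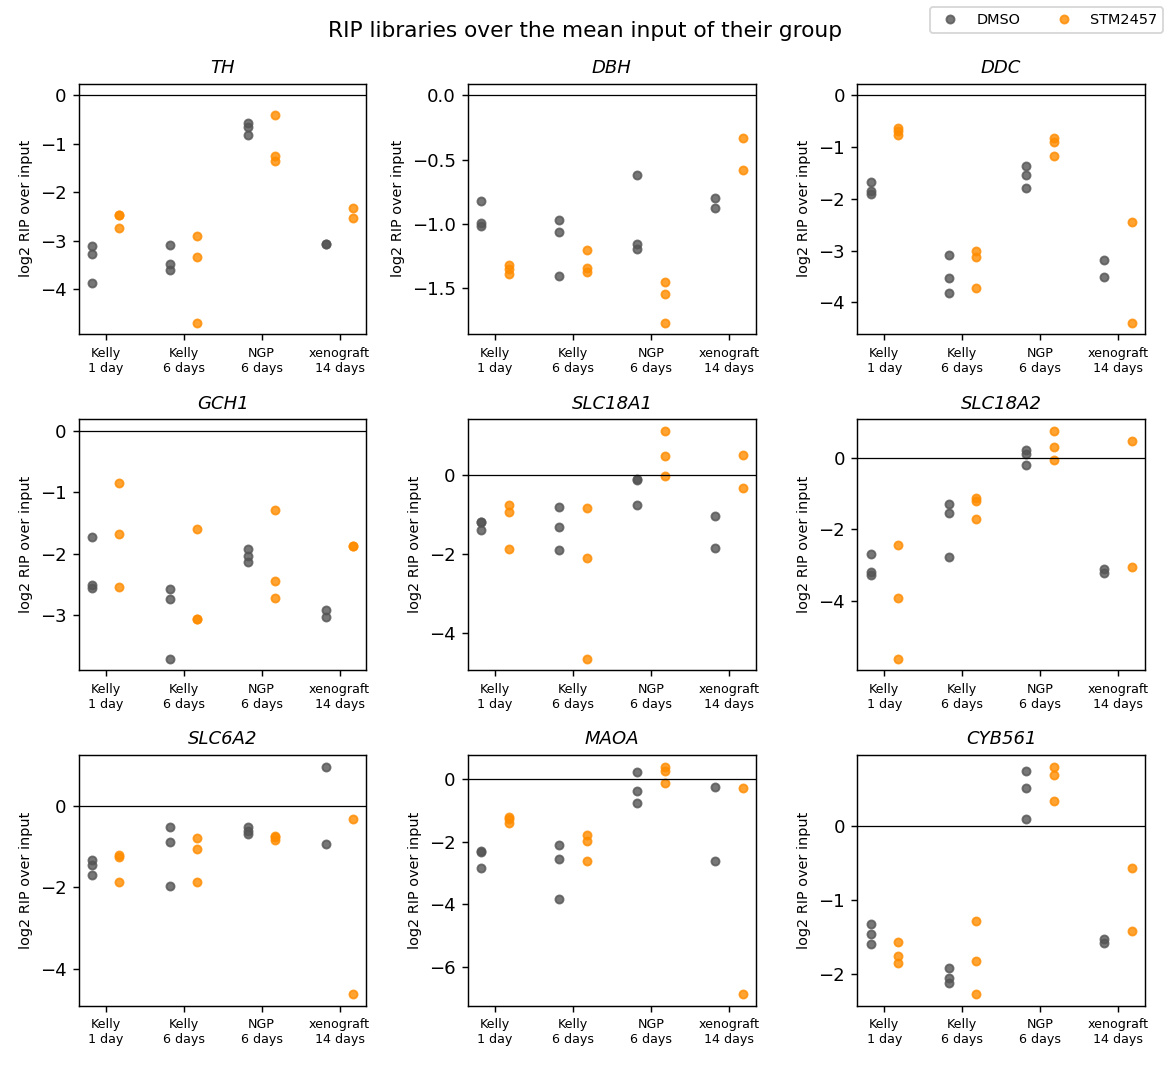
Log2 ratio of each RIP library over the mean input of its group, from log2(CPM + 1), for DMSO in grey and STM2457 in orange, with 1 point per library and a line at 0. At 1 day in Kelly cells the STM2457 points of TH, DDC and MAOA lie above the DMSO points and those of DBH below them (the rises turn when libraries are scaled to mitochondrial mRNAs), and the xenograft points are spread widely.

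Long exons are known to carry more m6A than short ones, and the members differ in exon structure. Over the 13348 genes with a reference transcript, the log2 ratio at 1 day in Kelly DMSO libraries had a Spearman correlation of 0.307 with the longest exon and of 0.083 with GGACT per kilobase, across genes of the same libraries. Over the 4 experiments the first ran from 0.209 to 0.347, and the second was -0.110 in NGP and 0.072 to 0.093 in the others. The longest exon was 402 bases in DDC, 464 in TH, 1014 in DBH and 1022 in SLC18A1, all under the median of 1770 bases. It was 2127 in GCH1, 2269 in SLC18A2, 2291 in CYB561, 2451 in MAOA and 3870 in SLC6A2, all above the median. In Kelly cells at 1 day all 9 members lay below the median of the genes whose longest exon was within a factor of 1.25 of their own. DDC was the closest, at -1.76 beside a median of -1.32, and TH stood at -3.34 beside -1.25 and DBH at -0.88 beside -0.27. MAOA, with a long last exon, stood at -2.44 beside a median of 0.49, and SLC6A2 at -1.44 beside 0.63. In the other experiments the exceptions were CYB561 in NGP (0.65 beside a median of 0.32) and SLC6A2 in the xenograft (0.40 beside 0.35), neither of them called. The lengths come from GENCODE 44, in which 77.3% of the exons of MAOA, 86.7% of those of SLC6A2 and at least 94.4% of those of the other members were identical to the deposited tables.

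**Figure D5:**
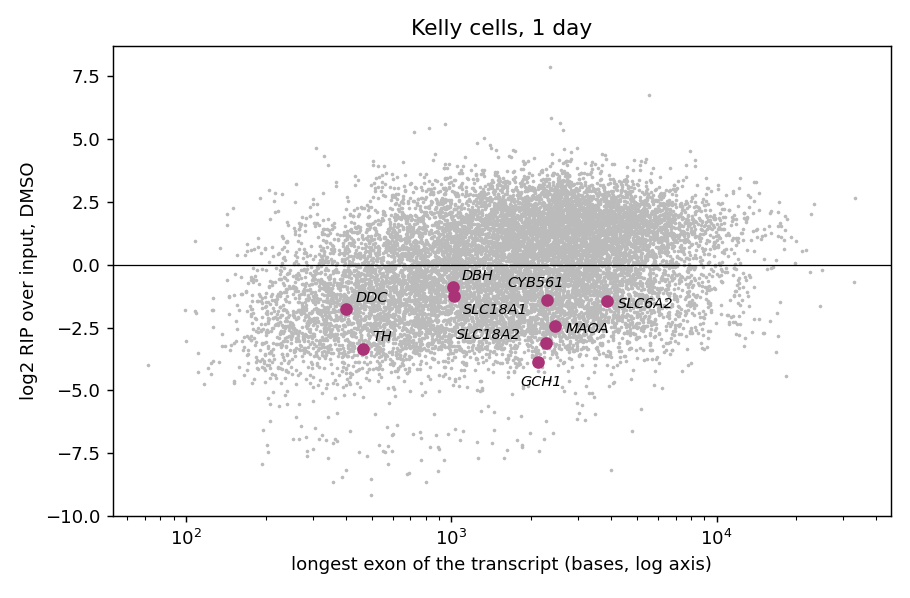
Log2 ratio of RIP over input in Kelly DMSO libraries at 1 day against the longest exon of each gene's reference transcript on a log axis, with all genes in grey and the 9 members in purple. All 9 members lie below 0 (4 of them above it when libraries are scaled to mitochondrial mRNAs), both those with short exons, DDC and TH, and those with long ones, MAOA and SLC6A2.

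Promoters of 5 of the 9 members were in the RefSeq table used (GRCh38.p14, 250 bases before to 50 after a start), those of DBH, DDC, SLC18A2, CYB561 and MAOA. TH, GCH1, SLC18A1 and SLC6A2 had no entry. Those of DBH and SLC18A2, whose inputs fell at 6 days, and of MAOA, whose input rose, are printed to set side by side members that moved in opposite directions. Searched on both strands were TGACG, the partial site of the cyclic AMP response element, its full palindrome TGACGTCA, which contains TGACG, and ATTA, a core bound by homeodomain factors. Capitals mark the matches.
DBH, chr9:133636113-133636412, plus strand: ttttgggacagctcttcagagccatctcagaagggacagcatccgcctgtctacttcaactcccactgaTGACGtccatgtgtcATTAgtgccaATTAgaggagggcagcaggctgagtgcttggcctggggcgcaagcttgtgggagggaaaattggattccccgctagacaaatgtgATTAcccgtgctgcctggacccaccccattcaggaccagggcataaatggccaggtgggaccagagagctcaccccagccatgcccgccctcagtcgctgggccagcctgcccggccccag
SLC18A2, chr10:117240864-117241163, plus strand: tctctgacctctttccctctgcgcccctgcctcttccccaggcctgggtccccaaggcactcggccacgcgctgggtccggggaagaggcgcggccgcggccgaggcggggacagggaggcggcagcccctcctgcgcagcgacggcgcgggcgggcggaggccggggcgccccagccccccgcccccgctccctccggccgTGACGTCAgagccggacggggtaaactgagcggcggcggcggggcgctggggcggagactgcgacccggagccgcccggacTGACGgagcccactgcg
MAOA, chrX:43656049-43656348, plus strand: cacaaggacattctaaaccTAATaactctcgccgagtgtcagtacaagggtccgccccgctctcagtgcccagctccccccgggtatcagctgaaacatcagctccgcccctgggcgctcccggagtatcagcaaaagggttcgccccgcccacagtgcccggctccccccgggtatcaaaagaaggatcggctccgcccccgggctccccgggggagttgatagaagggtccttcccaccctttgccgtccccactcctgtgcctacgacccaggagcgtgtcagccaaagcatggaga
The DBH window held 1 TGACG and 3 ATTA, the SLC18A2 window 1 TGACGTCA and, counting both strands of it, 3 TGACG, and the MAOA window 1 ATTA on the minus strand. Of the 35116 promoters in the table, 24.6% held TGACG, 1.85% TGACGTCA and 50.2% ATTA. DDC had 2 promoters, with 4 and 1 ATTA, and of the 4 promoters of CYB561 1 held ATTA. No TGACG was found in any promoter of DDC or CYB561, whose inputs also fell at 6 days.

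The median log2 change at 6 days in Kelly cells, -0.0045 over all genes, was -0.20 over the tested genes of tetrahydrobiopterin synthesis, -0.28 over other catecholamine enzymes, -0.42 over other monoamine transporters and -0.003 over ascorbate and copper supply. Of the 7 genes of tetrahydrobiopterin synthesis and recycling, 6 were tested in Kelly cells at 6 days: PTS (-0.60, SE 0.12) and QDPR (-0.33, SE 0.06) fell and SPR (0.46, SE 0.14) rose. Of 7 other enzymes, which act on catecholamines or their products, 5 were tested and 2 fell, among them ALDH2, the aldehyde dehydrogenase (-0.49, SE 0.07). Of 5 other monoamine transporters 2 were tested and SLC6A3, the dopamine transporter, fell (-0.80, SE 0.24). Of the 8 genes of ascorbate and copper supply all were tested, and the copper pump ATP7A rose (1.25, SE 0.20) while the copper chaperone ATOX1 fell (-0.43, SE 0.08). Of all 12773 genes tested, 26.6% were called (14.7% lower, 11.9% higher), and the ascorbate and copper list was called about as often.

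Among the 14 catecholamine receptors, 5 were tested in Kelly cells at 6 days (median 0.42), where the adrenergic receptors ADRA1D (1.90, SE 0.34), ADRA2A (1.08, SE 0.11) and ADRA2C (0.42, SE 0.10) rose and the dopamine receptor DRD2 fell (-0.49, SE 0.09). ADRA2A also rose in NGP (1.41, SE 0.19). The 8 transcription factors that direct the noradrenergic programme did not fall with the synthesis enzymes. In Kelly cells at 6 days 4 of the 8 rose (median 0.26), among them GATA3 (0.55, SE 0.07) and ISL1 (0.37, SE 0.07), and 0 fell, beside 11.9% of all genes higher and 14.7% lower. At 1 day 3 rose, among them HAND2 (0.19) and GATA2 (0.14), and 0 fell, beside 9.41% higher and 8.06% lower, and in NGP and the xenograft 0 of 8 passed.

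In the pull-down most receptors and factors were recovered above the typical gene in Kelly cells. In Kelly DMSO libraries at 1 day all 6 receptors tested were higher in RIP (33.3% of genes), with a median log2 ratio of 2.80, among them ADRA2C (2.77, SE 0.11). Of the 8 factors 6 were higher, HAND2 most (3.38, SE 0.06), and PHOX2A (-2.82, SE 0.14) and GATA3 (-0.42, SE 0.09) were lower, like the members. In NGP 0 of 5 receptors passed, and of the 8 factors 4 were higher and 1 lower (29% of genes higher, 26.5% lower). In Kelly cells at 1 day the other enzymes resembled the members, with 5 of 6 tested lower (34.3% of genes), such as ALDH2 (-3.89, SE 0.81) and AKR1A1 (-2.50, SE 0.17). Of these 5, PNMT and MAOB averaged only 0.98 and 0.39 CPM in the DMSO inputs. No test compared these lists with each other.

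Across the 22 inputs, the genes most like each member were found by Pearson's r of log2 values among 9340 genes with a mean of at least 10 CPM, as a description, since the points share 4 experiments and their differences in level. DBH and CYB561 were each other's closest (r = 0.994), followed by ZNF239 for DBH (0.991) and PRKAR2A for CYB561 (0.993). LTBR (0.987) and TUNAR (0.986) were closest to TH, SLC2A1 (0.979) and TRIM29 (0.978) to DDC, PRKAR2A (0.986) to SLC18A1, and TNFRSF10B (0.989) to SLC18A2. The highest r was lower for MAOA (PCDH1, 0.972), SLC6A2 (TBX3, 0.968) and GCH1 (HNRNPLL, 0.925). Among the members, TH and DBH had r = 0.976, SLC6A2 and TH 0.174, and GCH1 and TH -0.554.

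The number of assigned fragments per input was 24.1 to 26.6 M for Kelly cells at 1 day and 5.77 to 31.5 M for those at 6 days. NGP inputs had 5.49 to 11.6 M, xenograft inputs 2.14 to 7.27 M, and RIP libraries 4.68 to 36.5 M. All 9 markers of noradrenergic neuroblastoma averaged at least 1 CPM in every input group, also in NGP, where TH was nearly absent. Glutamatergic or GABAergic markers summed to at most 3.95 CPM, adrenal cortex markers to at most 7.21 CPM and blood markers to at most 12.1 CPM in any input library, and CYP17A1 was at 0 in all 8 input groups. The Schwann cell markers analysed summed to at most 34.6 CPM and cholinergic markers to at most 38.0 CPM. The 7 stroma and vessel markers summed to 79.0 to 186 CPM over all inputs, most of it PDGFRB and COL1A1, with PECAM1 averaging at most 0.233 CPM in any group. The counts are of human genes alone, so these sums do not measure mouse tissue in the xenografts. In Kelly cells at 6 days the stroma and vessel sum went from 139 to 147 CPM in DMSO to 102 to 123 CPM with STM2457, in the libraries where 7 members fell. In the same libraries the 9 noradrenergic markers rose in sum, from 23703 to 24326 CPM in DMSO to 26868 to 29364 CPM with STM2457. The summed level of 6 mesenchymal markers went with the NGP treatment, from 87.2 to 94.0 CPM in DMSO to 255 to 269 CPM with STM2457, where SLC6A2 and MAOA rose, with YAP1 at 0. That of the 4 serotonergic markers went with the 6 day Kelly treatment, from 126 to 140 CPM to 221 to 256 CPM, nearly all of it FEV (134 ± 7.77 and 232 ± 19.3 CPM, SD, n = 3 each). Their part in the members' changes was not tested.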

How the data were processed

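Input and RIP libraries were grouped by line or tumour, day and treatment from the labels. The authors deposited raw counts of fragments per gene; per the file headers they were made with featureCounts 1.5.3 on GENCODE 33 limited to protein-coding genes, with no strand option. The submitters' processing notes name HISAT2 2.1.0, Trimmomatic 0.36 and GRCh38. Spike-in RNAs named in the protocol are not analysed here.

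Each comparison was fitted over all genes with edgeR 4.0.16 (R 4.3.3): TMM factors, filterByExpr (minimum count 10), quasi-likelihood tests, two-sided, Benjamini-Hochberg at 0.05. Input change compared STM2457 with DMSO, RIP over input was the DMSO term, and its change the interaction of treatment and library type. TPM used the deposited gene lengths, for SLC18A2 also that without shared bases (added after seeing the data); per-library ratios used CPM + 1. Alternatives were DESeq2 1.42.0, RLE factors, no filter, mitochondrial scaling, 1 fit of all 22 inputs, limma 3.58.1 on TPM, a replicate block and each library left out. Scripts were tested on simulated data.

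The 9 members, the other gene lists and the markers were chosen with earlier results of these data known. All 9 members are named. Folders in the headers hold 1 experiment each, so batch and experiment cannot be told apart. In Kelly cells at 1 day the inputs and the RIP libraries were in separate folders. Folder and library type cannot be told apart in that RIP over input ratio. No pair of replicates agreed within sampling noise (lowest chi-square per degree of freedom 2.73). Counting floors cover counting error only. Some genes of the other lists and markers are not reported here.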

Additional observations from a re-analysis of the deposited data

Results flagged for a closer look

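The response to STM2457 differed between experiments for 14 member values (differences of log2 change), by the interaction of treatment and experiment in edgeR's quasi-likelihood test (adjusted p under 0.05 over all genes). NGP at 6 days was above Kelly at 6 days for TH (2.77), CYB561 (1.90), DDC (0.98) and DBH (0.79). Kelly at 6 days was below Kelly at 1 day for GCH1 (-0.75), SLC18A2 (-0.69), TH (-0.64), CYB561 (-0.40) and DDC (-0.36), and above it for SLC6A2 (0.48) and MAOA (0.34). The xenograft was above Kelly at 6 days for TH (1.19), SLC18A1 (0.89) and DBH (0.42). Over all genes, 1.36% were called between NGP and Kelly, 8.41% between the Kelly days and 9.98% between the xenograft and Kelly. The NGP differences of TH and CYB561 rest on few fragments. The calls of DBH, GCH1, MAOA and SLC18A1 were lost when some single libraries were left out. Each comparison is between separate experiments, so line, day or host and experiment cannot be told apart.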

How the results depend on the processing

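Alternative values were tallied for some members per comparison. For the change of the ratio and the differences of input change, only members called by the edgeR test were included. Calls gained there by other members are therefore not in the tally. Of 1294 such values, 1169 kept their direction and side of the threshold, 89 lost the call, 17 gained one and 19 reversed, all 19 with mitochondrial scaling of the RIP libraries. On that scale RIP over input was, at 1 day in Kelly cells, 0.76 for DBH, 0.40 for SLC18A1, 0.24 for CYB561 and 0.20 for SLC6A2. At 6 days it was 1.68 for TH, 3.67 for DBH, 1.63 for DDC, 0.99 for GCH1, 3.32 for SLC18A1, 3.27 for SLC18A2, 3.50 for SLC6A2, 1.67 for MAOA and 2.93 for CYB561. It was 0.28 for MAOA in NGP, and 1.57 for DBH and 0.86 for CYB561 in the xenograft. The changes of the ratio at 1 day were -0.54 for TH, -0.22 for DDC and -0.14 for MAOA. With it 4 of 9 members were called in RIP over input at 1 day, 2 of 8 in NGP and 0 of 9 in the xenograft, and 2 of 9 for the change at 6 days. The fit of all 22 inputs shares 1 spread and called 0 members for the input change at 1 day and 6 of 9 at 6 days in Kelly cells, 6 for NGP and 1 for the xenograft. DESeq2 called 4 members for RIP over input in the xenograft. Replicate numbers did not pair the libraries: correlations of same-numbered deviations from the group means ran from -0.343 to 0.244. A replicate block called 1 member in place of 3 for the difference between xenograft and Kelly cells, where DBH (adjusted p = 0.069 in edgeR's test) and SLC18A1 (0.111) lost their calls. With the block GCH1 gained a call for the NGP input change (0.0308) and lost it for RIP over input at 6 days (0.0593) and for the difference between the Kelly days (0.0747), and SLC6A2 lost its xenograft level call (0.151). It changed no other member's call. Without 1 library at a time, calls ran from 2 to 5 for the change of the ratio at 1 day, 0 to 1 at 6 days, 1 to 3 for the NGP input change, 0 to 2 for the xenograft input change, 0 to 4 for RIP over input in the xenograft and 1 to 6 for the difference between xenograft and Kelly cells. Where this left 1 xenograft library in a group, the fit gave the lone library the spread of the remaining groups. Calls over all genes moved by over 1.5 times too: the fit of all 22 inputs called 26 in place of 2315 at 1 day, 791 in place of 3396 at 6 days, 1266 in place of 520 in NGP and 2551 in place of 0 in the xenograft, where the edgeR fit without a filter called 100 and that with a replicate block 65. RIP over input in the xenograft gave 2396 by DESeq2, 1207 without a filter, 741 with a replicate block and 0 with mitochondrial scaling, in place of 474. The change of the ratio gave 8361 with mitochondrial scaling in place of 2345 at 1 day, and 5225 with it, 1011 by DESeq2 and 0 with a replicate block in place of 275 at 6 days. The difference between xenograft and Kelly cells gave 2483 by DESeq2 and 352 with a replicate block in place of 1317. The cause of these changes was not tested. Depth limits the xenograft inputs (2.14 M fragments at the least), and at most 49 fragments per library stood behind TH, CYB561, SLC18A1 and SLC18A2 in NGP inputs.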
